A study of Mus musculus with 23 samples.

Results

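The enzymes described here are the phase II conjugation enzymes of mouse liver: UDP-glycosyltransferases (Ugt1a, Ugt2a, Ugt2b and Ugt3a genes), sulphotransferases (Sult genes) and the soluble glutathione transferases (Gsta, Gstm, Gstp, Gstt, Gsto, Gstz and Gstk genes). Members were chosen by gene symbol alone, leaving out symbols that end in -ps, and by a mean of at least 10 counts over all libraries. Of 72 genes with such symbols in the deposited table, 42 met that minimum, out of 14466 genes that met it in the whole table. They are 9 glycosyltransferases, 15 sulphotransferases (among them the pseudogene Sult2a-ps2, which the symbol rule keeps) and 18 glutathione transferases.

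Messenger RNA was sequenced from the livers of 23 C57Bl/6J mouse pups, 1 library per animal, at postnatal day 21, except for animal 97 of the MetS-Ct group, which is labelled day 22. Dams were fed a diet with 45% fat (a model of maternal metabolic syndrome, MetS) or a control diet with 10% fat, starting at 3 weeks of age and lasting 7 or 17 weeks, and litters of 5 pups were given to a foster dam at birth. MetS-MetS pups (n = 5) were born to a MetS dam and nursed by another MetS dam, Ct-MetS pups (n = 6) were born to a control dam and nursed by a MetS dam, MetS-Ct pups (n = 6) were born to a MetS dam and nursed by a control dam, and Ct-Ct pups (n = 6) had control dams at both times. The labels do not tie single pups to a litter, a sex or a diet length, so that p-values measure the spread between pups, some of which may be littermates. The label names the dam's syndrome, not what the pups themselves ate.

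Conjugation is the step of detoxification in which a liver cell attaches a polar group to a drug, hormone, bile acid or bilirubin so that it can leave in bile or urine. Glycosyltransferases take a sugar, mostly glucuronic acid, from a UDP-sugar. Sulphotransferases take sulphate from the activated donor PAPS, and glutathione transferases join electrophiles, such as products of lipid peroxidation, to glutathione. Many of these genes are activated by the receptors CAR, PXR, AhR and PPARα and by the oxidant-responsive factor NRF2, several change strongly between birth and adulthood, and some differ between male and female rodent liver.

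Library totals ranged from 16876460 to 34527932 counts, and the 42 members together held 0.505% to 0.937% of them. MetS-MetS was the shallowest group, with a mean total of 22298680 counts. The means were 28312879 in Ct-MetS, 27651612 in MetS-Ct and 27005778 in Ct-Ct. All 23 libraries had at least 913 CPM (counts scaled to library size with TMM factors) of Xist and at most 1 count of Ddx3y, so that all pups read as female. The hepatocyte markers (Alb, Apoa1, Ttr, Cps1, Tat, Hnf4a and Serpina1a) were all present and summed to 106225 to 148833 CPM. Library Ct-Ct_33 stood apart in these enzymes: it was the highest of the 6 Ct-Ct libraries for 25 of the 42 members, and the highest of all 23 for 7. Calls of members that change without it are given below. It was singled out for these high levels, so calls gained without it rest on values already seen and are no independent test.

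When ranked per kilobase of exon, so that genes of different length can be compared, the most abundant member was Sult2a1, which sulphates bile acids and steroids such as dehydroepiandrosterone, at a mean of 611 CPM per kb over the 23 livers. It was followed by Gstm1, a mu-class glutathione transferase, at 416 CPM per kb. Sult1a1, which sulphates phenols, stood at 250 CPM per kb, and Gsta3, an alpha-class transferase that in mouse inactivates aflatoxin epoxide, at 245 CPM per kb. Ugt2b36 at 209 CPM per kb was the most abundant glycosyltransferase. The lowest levels belonged to Sult3a1 at 0.736 and Gstp2 at 0.427 CPM per kb. The steadiest members between pups of 1 group were Gstt1, Gstk1 and Gstz1, with within-group standard deviations of 0.135, 0.176 and 0.205 in log2(CPM + 0.01). The most variable were Sult3a1 at 2.02, Ugt2b37 at 1.51, Sult1e1 at 1.35 and Gsta2 at 1.22.

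**Figure D1:**
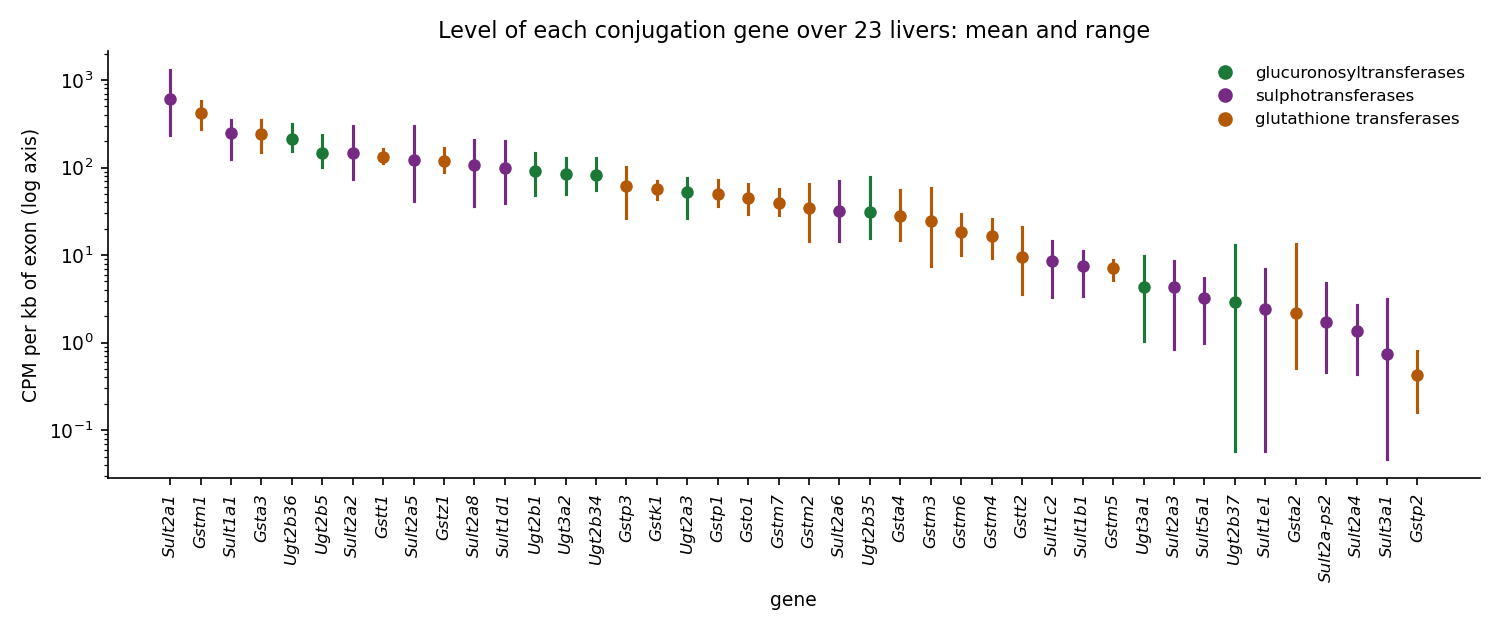
Levels of the 42 members, as CPM per kilobase of exon on a log axis, ordered by the mean over 23 livers (points), with lines from the lowest library above 0 to the highest. Sult2a1 lies highest at a mean of 611 and Gstp2 lowest at 0.427; 1 library with 0 counts of Sult3a1 is off the axis.

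Of the 42 members, 6 passed a test in at least 1 comparison, namely Ugt3a1, Ugt3a2, Ugt2b37, Gsto1, Gstm7 and Sult1e1. The bases just before the annotated starts of 5 of them are shown because these are the stretches that carry the promoters of the genes that moved (RefSeq, GRCm38.p6, 250 bases before the start, read 5′ to 3′ in the direction of transcription; for Gstm7 the most upstream of its annotated starts). Lower case throughout means that none of 4 searched motifs was found in these windows on either strand.
Ugt3a1 (chr15:9279579-9279828, forward strand): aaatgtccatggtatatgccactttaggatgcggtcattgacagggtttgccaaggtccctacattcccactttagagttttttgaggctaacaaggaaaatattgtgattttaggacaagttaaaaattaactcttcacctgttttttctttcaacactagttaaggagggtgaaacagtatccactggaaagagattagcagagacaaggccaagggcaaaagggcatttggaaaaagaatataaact
Ugt2b37 (chr5:87254789-87255038, reverse strand): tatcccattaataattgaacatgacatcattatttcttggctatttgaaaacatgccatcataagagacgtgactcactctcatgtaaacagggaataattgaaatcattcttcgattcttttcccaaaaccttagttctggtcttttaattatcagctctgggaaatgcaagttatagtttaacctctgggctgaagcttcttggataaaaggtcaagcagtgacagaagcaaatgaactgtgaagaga
Gsto1 (chr19:47854723-47854972, forward strand): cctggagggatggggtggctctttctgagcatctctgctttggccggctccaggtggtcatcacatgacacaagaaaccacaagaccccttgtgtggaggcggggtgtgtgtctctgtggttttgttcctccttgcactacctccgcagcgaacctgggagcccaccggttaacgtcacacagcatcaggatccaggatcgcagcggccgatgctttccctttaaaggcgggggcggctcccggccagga
Gstm7 (chr3:107931818-107932067, reverse strand): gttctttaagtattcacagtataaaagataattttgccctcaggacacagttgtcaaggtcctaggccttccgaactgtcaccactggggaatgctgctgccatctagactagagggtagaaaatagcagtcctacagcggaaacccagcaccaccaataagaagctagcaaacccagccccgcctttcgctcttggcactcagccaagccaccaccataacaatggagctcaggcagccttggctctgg
Sult1e1 (chr5:87591612-87591861, reverse strand): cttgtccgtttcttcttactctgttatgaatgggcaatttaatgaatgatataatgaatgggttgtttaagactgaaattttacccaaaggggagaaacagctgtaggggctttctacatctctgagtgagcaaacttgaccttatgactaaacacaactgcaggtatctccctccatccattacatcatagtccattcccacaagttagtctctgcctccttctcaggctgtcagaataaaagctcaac
The motifs included the antioxidant response element core that NRF2 binds (TGACNNNGC) and the xenobiotic response element core that AhR binds (GCGTG). The others were the E-box CACGTG and the STAT palindrome TTCNNNGAA. The antioxidant core, in which N is any base, can hold the xenobiotic core read on the other strand (CACGC). Gstm5 has such a stretch, TGACCACGC, and is counted under both. Over the 36 members with a sequence, the antioxidant core was found in 3 (8.33%, against 11.5% of 27025 genes), namely Gsta3, Gstm5 and, before its more downstream start, Gstm7. The xenobiotic core was found in 7 (19.4%, against 30.9%), the E-box in 0 (against 6.86%) and the STAT palindrome in 2 (5.56%, against 8.13%). A match is a description of the letters and not a binding site.

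In pups exposed at both times, 3 members rose and 1 fell against pups with control dams. Ugt3a1, Ugt3a2 and Gsto1 were higher and Gstm7 was lower in MetS-MetS livers (edgeR quasi-likelihood test, Benjamini-Hochberg adjusted over 14466 genes, threshold 0.05). This is 4 of 42 members, or 9.52%, beside 5.78% of all genes tested. The share of members higher was 3 of 42, against 3.06% of all genes, and the share lower was 1 of 42, against 2.72%. DESeq2 called 6 of 42 (14.3%, against 9.3% of all genes), adding Ugt2b37 and Gstk1. The limma-voom test called 3 (7.14%, against 3.64% of all genes), without Gsto1. In 4 members the MetS-MetS libraries all lay above the Ct-Ct libraries (Ugt3a1, Ugt3a2, Ugt2b37 and Gsto1) and in 1 they all lay below (Gstm7); over all genes the groups did not overlap in 4.41%, with 2.44% higher and 1.97% lower.

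Ugt3a1 and Ugt3a2 are a small family of glycosyltransferases; in human, UGT3A1 uses UDP-N-acetylglucosamine, and UGT3A2 uses UDP-glucose and UDP-xylose, in place of UDP-glucuronic acid. Ugt3a1 had 16.1, 16.4, 17.0, 25.9 and 17.2 CPM in MetS-MetS_39, MetS-MetS_109, MetS-MetS_110, MetS-MetS_154 and MetS-MetS_157. Ct-MetS libraries ran from 4.12 through a median of 9.24 to 22.6 CPM, MetS-Ct libraries from 7.18 through 9.81 to 13.3 CPM, and Ct-Ct libraries from 2.79 through 7.74 to 11.2 CPM. Every MetS-MetS liver was above every Ct-Ct and every MetS-Ct liver, and 4 of the 5 lay between 16.1 and 17.2 CPM. The log2 fold change in MetS-MetS against Ct-Ct was 1.28 ± 0.339 (SE, adjusted p = 0.0318, 5 of 5 libraries higher than the Ct-Ct mean).

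Ugt3a2 was the far more abundant of the pair, at 84.8 CPM per kb against 4.37 for Ugt3a1. It had 285, 373, 358, 401 and 292 CPM in the 5 MetS-MetS libraries, in the same order. The Ct-MetS libraries spanned 153.9 to 319 CPM around a median of 228, the MetS-Ct libraries 223 to 278 around 260, and the Ct-Ct libraries 174 to 272 around 237. The MetS-MetS livers lay above all MetS-Ct and Ct-Ct livers, while Ct-MetS livers overlapped every other group. Its log2 fold change in MetS-MetS against Ct-Ct was 0.55 ± 0.148 (adjusted p = 0.0334, 5 of 5 libraries). In Ct-MetS against Ct-Ct the estimate was -0.0024 ± 0.142 and in MetS-Ct against Ct-Ct 0.13 ± 0.142, and neither passed. The 2 genes share only 7.60% (Ugt3a1) and 7.01% (Ugt3a2) of their 50-base stretches with other genes of the annotation.

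Gsto1 encodes the omega-class transferase, which uses glutathione to reduce disulphides, dehydroascorbate and methylated arsenic. Its levels were 131, 105, 105, 99.3 and 119 CPM in the MetS-MetS libraries. The Ct-MetS range was 58.9 to 114 CPM with a median of 80.2, the MetS-Ct range 62.5 to 130 CPM with a median of 91.6, and the Ct-Ct range 60.0 to 92.1 CPM with a median of 75.4. MetS-MetS livers were all above the Ct-Ct range, whereas the MetS-Ct range overlapped theirs. The log2 fold change in MetS-MetS was 0.56 ± 0.164 (adjusted p = 0.0470, 5 of 5 libraries). It was no longer passed in 17 of 23 fits that each left out 1 library, with an adjusted p of up to 0.117 without Ct-Ct_129. Nor did it pass with limma-voom (adjusted p = 0.0542) or without a count minimum (adjusted p = 0.0759).

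Gstm7, a mu-class transferase, was the member that fell. Its levels were 46.1, 58.4, 50.5, 59.1 and 46.7 CPM in the MetS-MetS libraries. Ct-MetS livers had 48.4 to 71.9 CPM (median 56.5), MetS-Ct livers 51.2 to 82.9 CPM (median 63.4) and Ct-Ct livers 62.2 to 90.8 CPM (median 72.6). The lowest Ct-Ct liver was still above the highest MetS-MetS liver. In MetS-MetS against Ct-Ct, log2 Gstm7 fell by 0.50 ± 0.134 (adjusted p = 0.0322, 5 of 5 libraries lower), and 0.53% of its 50-base stretches occur in another gene.

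**Figure D2:**
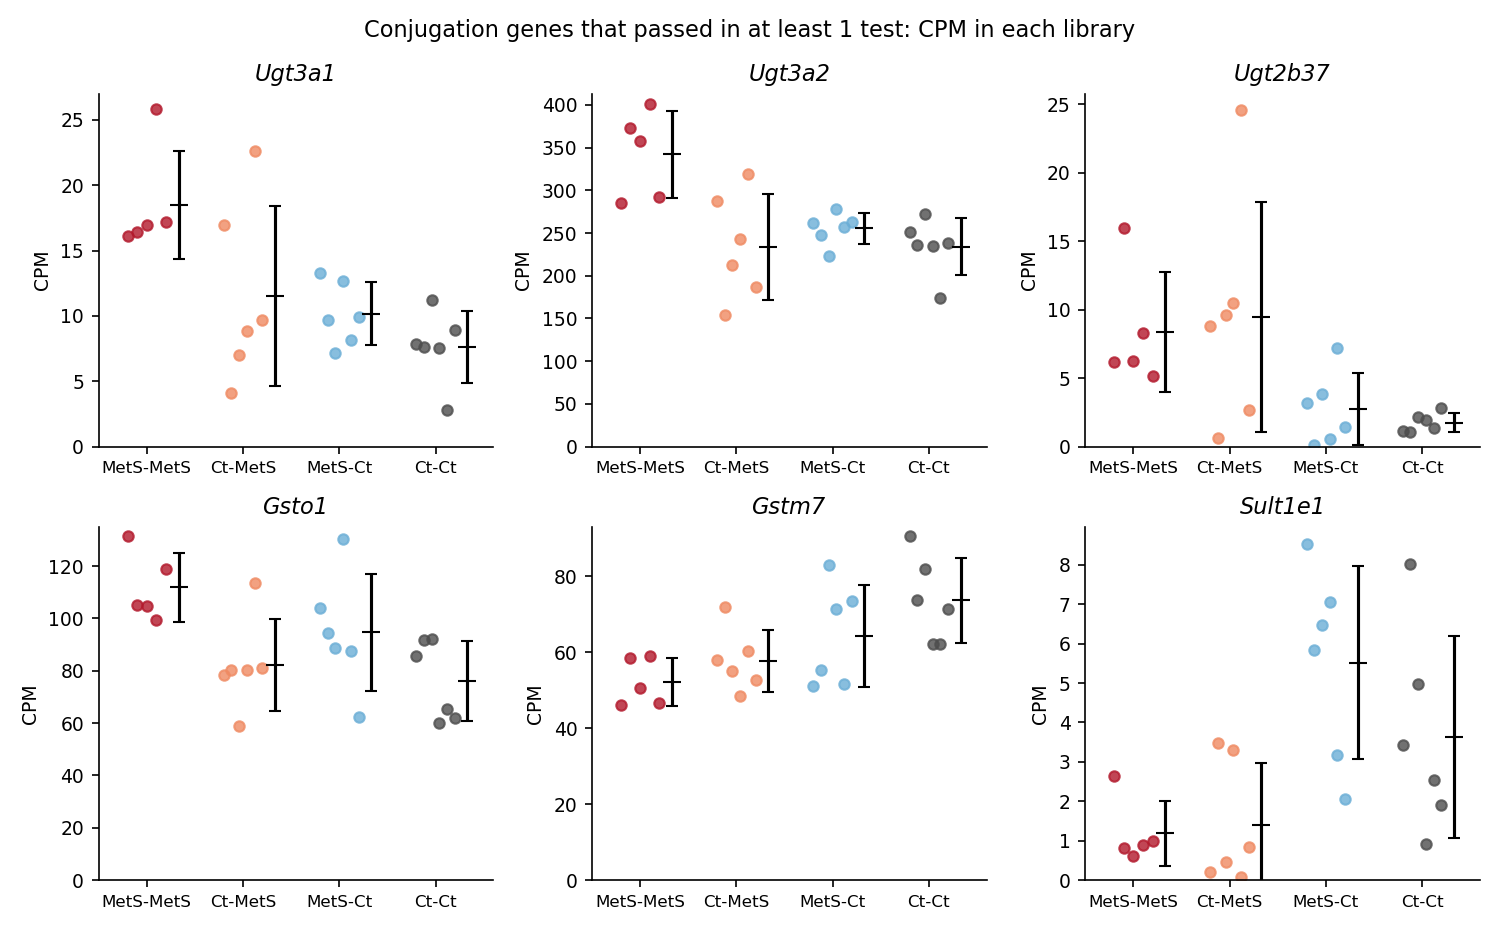
CPM of the 6 members that passed a test, 1 point per liver, with the mean and SD beside the points for each group (MetS-MetS n = 5, other groups n = 6; bars that would go below 0 end at the axis). MetS-MetS livers lie above all Ct-Ct livers for Ugt3a1, Ugt3a2, Ugt2b37 and Gsto1 and below them for Gstm7; Sult1e1 is at or under 3.47 CPM in every liver of a pup nursed by a MetS dam.

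These 4 results rest on few livers. Leaving out 1 library at a time, the number of members that passed in MetS-MetS went between 0 and 11. It was 0 without MetS-MetS_110, without Ct-Ct_139 or without Ct-Ct_4, and 11 without Ct-Ct_33, when 9.36% of all genes passed. Ugt3a1 was lost without MetS-MetS_110, MetS-MetS_154, MetS-MetS_157, Ct-Ct_129, Ct-Ct_139 or Ct-Ct_4 (adjusted p up to 0.0740). Ugt3a2 was lost without MetS-MetS_109, MetS-MetS_110, MetS-MetS_154, Ct-Ct_129, Ct-Ct_130, Ct-Ct_139 or Ct-Ct_4 (up to 0.0764). Gstm7 was lost without MetS-MetS_39, MetS-MetS_110, MetS-MetS_157, Ct-Ct_139 or Ct-Ct_4 (up to 0.0807). Without a count minimum on the genes tested, Ugt3a1 and Ugt3a2 did not pass either (adjusted p = 0.0700 and 0.0518).

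Pups nursed by a MetS dam were also compared with pups nursed by a control dam, averaging over the birth dam (MetS-MetS and Ct-MetS against MetS-Ct and Ct-Ct). Ugt2b37 rose and Sult1e1 and Gstm7 fell, which is 3 of 42 members (7.14%), beside 4.22% of all genes. Of 42, 1 was higher, against 2.27% of all genes, and 2 were lower, against 1.95%. DESeq2 called 4 of 42 (9.52%, against 7.18% of all genes), adding Ugt3a1. With limma-voom only Sult1e1 passed, 1 of 42 (2.38%, against 3.97% of all genes). Without Ct-Ct_33, 5 members passed, against 5.33% of all genes: Ugt2b37 and Sult1e1 were kept, Gstm7 was lost (adjusted p = 0.0565), and Ugt2b5 (0.42 ± 0.105, adjusted p = 0.0242), Ugt2b34 (0.36 ± 0.0979, 0.0355) and Sult2a8 (0.89 ± 0.231, 0.0283) were higher. The nursing groups overlapped for every member, as they did for nearly all genes (0.0484% of genes did not overlap).

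Ugt2b37 belongs to the Ugt2b cluster, whose enzymes join glucuronic acid to steroids and bile acids. It had 6.18, 16.0, 6.25, 8.27 and 5.19 CPM in the MetS-MetS libraries. The Ct-MetS libraries ran from 0.650 through a median of 9.20 to 24.6 CPM, the MetS-Ct libraries from 0.111 through 2.34 to 7.23 CPM and the Ct-Ct libraries from 1.08 through 1.65 to 2.80 CPM. The Ct-MetS livers were spread most widely in CPM, and Ct-MetS_50 lay below every Ct-Ct liver. Its log2 fold change with nursing by a MetS dam was 2.02 ± 0.499 (adjusted p = 0.0272, 10 of 11 libraries above the mean of the control-nursed pups). The estimates against Ct-Ct were 2.25 ± 0.728 in MetS-MetS (adjusted p = 0.0676) and 2.43 ± 0.707 in Ct-MetS (adjusted p = 0.102); they share the Ct-Ct livers, and neither passed with edgeR. DESeq2 called both (adjusted p = 0.0314 in MetS-MetS and 0.0260 in Ct-MetS), limma-voom called neither (0.142 and 0.378), and an edgeR fit of the compared groups alone called that in MetS-MetS (0.00859) and not that in Ct-MetS (0.116). The nursing result was lost without MetS-MetS_109 or without Ct-MetS_145, the 2 livers with the highest levels in their groups (adjusted p up to 0.0537), and also with limma-voom (0.0688) and without a count minimum (0.0592).

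Part of Ugt2b37 reads the same as the abundant Ugt2b5: 15.2% of its 50-base stretches also occur there. Ugt2b37 counts were 1.66% to 3.68% of the Ugt2b5 counts in MetS-MetS (median 2.08%) and 0.339% to 6.67% in Ct-MetS (3.52%). They were 0.0554% to 2.52% in MetS-Ct (0.996%) and 0.460% to 1.21% in Ct-Ct (0.614%). The ratio was not constant over the livers. Ugt2b5 itself averaged 358 ± 54.5 (SD), 256 ± 67.5, 237 ± 36.4 and 254 ± 91.3 CPM in MetS-MetS, Ct-MetS, MetS-Ct and Ct-Ct. Whether reads of Ugt2b5 entered the Ugt2b37 counts was not tested.

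Sult1e1 is the oestrogen sulphotransferase, which inactivates oestradiol at very low concentrations. Its levels were 2.64, 0.806, 0.619, 0.903 and 0.984 CPM in the MetS-MetS libraries. Ct-MetS livers had 0.0714 to 3.47 CPM (median 0.652), MetS-Ct livers 2.07 to 8.52 CPM (median 6.15) and Ct-Ct livers 0.927 to 8.03 CPM (median 2.99). The livers of control-nursed pups reached far higher, but the lowest of them overlapped the MetS-nursed livers. With nursing by a MetS dam, log2 Sult1e1 fell by 1.79 ± 0.483 (adjusted p = 0.0397, 11 of 11 libraries below the mean of the control-nursed pups). The result was lost in 13 of 23 fits without 1 library (adjusted p up to 0.0730 without MetS-MetS_154) and without a count minimum (0.0826).

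With nursing by a MetS dam, log2 Gstm7 fell by 0.33 ± 0.0921 (adjusted p = 0.0455, 10 of 11 libraries lower). It no longer passed in 16 of 23 such fits, with an adjusted p of up to 0.0814, nor with limma-voom (0.0517) or without a count minimum (0.0572).

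No member passed in the other tests, and the unadjusted counts differed between them. For birth to a MetS dam, averaged over the foster dam, 0 of 42 passed with edgeR (0.00691% of all genes) and 17 of 42 (40.5%) had an unadjusted p under 0.05, against 16.3% of all genes; limma-voom called 0 and DESeq2 called 1 (against 0.968% of all genes), Sult1d1. Sult1d1, which in rodents sulphates catecholamines and other phenols, averaged 277 ± 54.5 CPM in MetS-MetS, 166 ± 57.8 in Ct-MetS, 319 ± 106 in MetS-Ct and 225 ± 74.7 in Ct-Ct, and its edgeR estimate for birth to a MetS dam was 0.62 ± 0.179 (adjusted p = 0.165, 10 of 11 libraries). In Ct-MetS against Ct-Ct 0 of 42 passed with edgeR (0.954% of all genes), 8 (19.0%) had an unadjusted p under 0.05, against 13.9% of all genes, limma-voom called 0 and DESeq2 called 1 (against 2.94% of all genes), Ugt2b37. In MetS-Ct against Ct-Ct 0 passed with any of the 3 tools (edgeR, 0% of all genes) and 2 (4.76%) had an unadjusted p under 0.05, against 5.9% of all genes; without Ct-Ct_33 it was 11, against 7.98%. For the interaction of both exposures 0 passed with any of the 3 tools (edgeR, 0% of all genes) and 3 (7.14%) had an unadjusted p under 0.05, against 5.44% of all genes. In the test of any difference among the 4 groups, 0 passed with edgeR (2.51% of all genes), 14 (33.3%) had an unadjusted p under 0.05, against 20.7% of all genes, limma-voom called 0 and DESeq2 called 6 (14.3%, against 7.37% of all genes). Without Ct-Ct_33 that test called 3 members, Ugt2b34, Ugt2b36 and Ugt2b5 (against 3.9% of all genes).

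Taken by family, the glycosyltransferases all had estimates above 0 in MetS-MetS against Ct-Ct (9 of 9). Their median log2 fold change was 0.51, and 2 of the 9 passed. Over all genes tested the median was -0.0038 and 49.4% were above 0. The 7 hepatocyte markers had a median of 0.28 in the same comparison, so an upward shift was not particular to these enzymes. The summed level of the 9 genes was 2299 ± 370 CPM in MetS-MetS, 1630 ± 319 in Ct-MetS, 1646 ± 247 in MetS-Ct and 1663 ± 480 in Ct-Ct. Ugt2b36, the most abundant, had 461 to 623 CPM in MetS-MetS (median 537), 325 to 458 in Ct-MetS (356), 352 to 510 in MetS-Ct (416) and 320 to 654 in Ct-Ct (368), and its estimate in MetS-MetS was 0.39 ± 0.158 (adjusted p = 0.127). Ugt2a3 had 103 to 161 CPM in MetS-MetS (median 152), 56.8 to 141 in Ct-MetS (99.3), 76.0 to 148 in MetS-Ct (108) and 67.0 to 133 in Ct-Ct (94.7), with an estimate of 0.57 ± 0.220 in MetS-MetS (adjusted p = 0.117). Ct-Ct_33 was the highest Ct-Ct library in 8 of the 9 genes, and MetS-MetS_39 and Ct-MetS_50 were each the lowest of their group in 8 of 9.

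Without Ct-Ct_33, 10 members were higher and 1 lower in MetS-MetS, beside 9.36% of all genes that passed in either direction. That library was picked out for its high levels, being the highest Ct-Ct library for 25 of the 42 members. Leaving it out lowers the Ct-Ct mean of such members, so the added calls are no independent test. Named after their values were seen, the 7 added to the 4 above were Ugt2b34 (0.69 ± 0.145, adjusted p = 0.00873), Ugt2b5 (0.72 ± 0.156, 0.00947), Ugt2b36 (0.58 ± 0.126, 0.0103), Ugt2b1 (0.67 ± 0.211, 0.0488), Gstk1 (0.43 ± 0.0964, 0.0123), Gstz1 (0.38 ± 0.103, 0.0255) and Sult2a8 (1.13 ± 0.343, 0.0422). With all libraries none of these 7 passed with edgeR, while DESeq2 called Gstk1 (adjusted p = 0.0309). Ugt2b34 also passed in the edgeR fit without MetS-MetS_39, and Gstk1 in those without Ct-MetS_169 or without MetS-Ct_97.

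**Figure D3:**
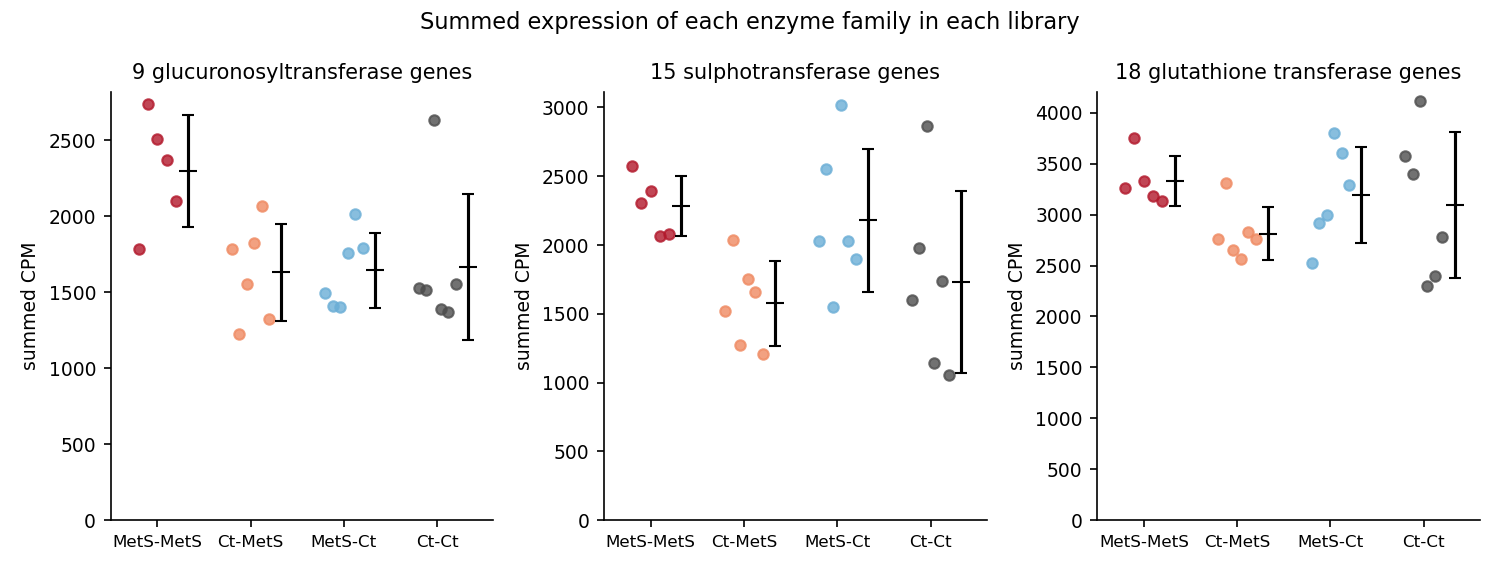
Summed CPM of the members of each enzyme family, 1 point per liver, with the mean and SD beside the points (MetS-MetS n = 5, other groups n = 6). The glycosyltransferase sum averaged 2299 CPM in MetS-MetS and 1663 CPM in Ct-Ct, where the single highest point is Ct-Ct_33 at 2630 CPM.

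Among the 15 sulphotransferases none passed in MetS-MetS with edgeR, DESeq2 or limma-voom. With edgeR, 2 (13.3%) had an unadjusted p under 0.05, against 24.4% of all genes. Of the 15 estimates 11 were above 0, with a median of 0.25, beside 0.28 for the 7 hepatocyte markers. Sult2a1 levels ran from 539 through a median of 677 to 1035 CPM in MetS-MetS, from 242 through 341 to 833 CPM in Ct-MetS, from 418 through 663 to 1319 CPM in MetS-Ct and from 241 through 572 to 1009 CPM in Ct-Ct. The livers above 1000 CPM came from 3 groups: MetS-MetS_39, MetS-Ct_70, MetS-Ct_97 and Ct-Ct_33. Its estimate for birth to a MetS dam was 0.64 ± 0.251 (adjusted p = 0.232, 10 of 11 libraries). For birth to a MetS dam 13 of 15 sulphotransferase estimates were above 0 and 7 (46.7%) had an unadjusted p under 0.05, against 16.3% of all genes. For nursing by a MetS dam 9 of 15 were below 0. The summed sulphotransferase level was 2284 ± 217 CPM in MetS-MetS, 1576 ± 309 in Ct-MetS, 2179 ± 520 in MetS-Ct and 1732 ± 659 in Ct-Ct. The Sult2a genes share sequence with one another, up to 62.1% of the 50-base stretches of Sult2a2 and 33.2% of those of Sult2a1, and their single values are uncertain to that extent.

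Among the 18 glutathione transferases the classes did not move together. All 7 mu-class estimates (Gstm1 to Gstm7) were below 0 in Ct-MetS and in MetS-Ct against Ct-Ct and 6 of 7 in MetS-MetS, comparisons that share the Ct-Ct livers, and only Gstm7 passed. Gstm1 had 521 to 664 CPM in MetS-MetS (median 593), 475 to 757 in Ct-MetS (517), 401 to 826 in MetS-Ct (588) and 473 to 850 in Ct-Ct (707), with an estimate of -0.17 ± 0.176 in MetS-MetS (adjusted p = 0.584). The summed mu-class level was 800 ± 78.8 CPM in MetS-MetS, 779 ± 132 in Ct-MetS, 824 ± 168 in MetS-Ct and 952 ± 231 in Ct-Ct.

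Of the other classes, only Gsto1 passed in MetS-MetS with edgeR over all 23 libraries; DESeq2 also called Gstk1, and the edgeR fit of the compared groups alone called Gstt2 (adjusted p = 0.0246). Gsta3 averaged 1210 ± 138 CPM in MetS-MetS, 905 ± 186 in Ct-MetS, 1154 ± 206 in MetS-Ct and 1006 ± 340 in Ct-Ct (MetS-MetS against Ct-Ct 0.27 ± 0.187, adjusted p = 0.398). Gstz1, the maleylacetoacetate isomerase of tyrosine breakdown, averaged 682 ± 33.3, 553 ± 61.3, 618 ± 70.2 and 577 ± 143 CPM in MetS-MetS, Ct-MetS, MetS-Ct and Ct-Ct (0.24 ± 0.128, adjusted p = 0.248). Gstk1, the kappa-class enzyme of mitochondria and peroxisomes, averaged 94.4 ± 8.04, 82.1 ± 9.47, 84.3 ± 9.23 and 74.6 ± 12.2 CPM in the same order (0.34 ± 0.106, adjusted p = 0.0569). Gstt1, a theta-class enzyme, averaged 220 ± 20.2, 191 ± 12.8, 208 ± 26.7 and 197 ± 15.8 CPM (0.16 ± 0.0893, adjusted p = 0.283). Gstp1, the pi-class enzyme, averaged 74.5 ± 14.9, 87.3 ± 14.3, 68.1 ± 6.15 and 79.9 ± 11.4 CPM (-0.10 ± 0.128, adjusted p = 0.674), and 33.7% of its 50-base stretches occur in Gstp2.

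**Figure D4:**
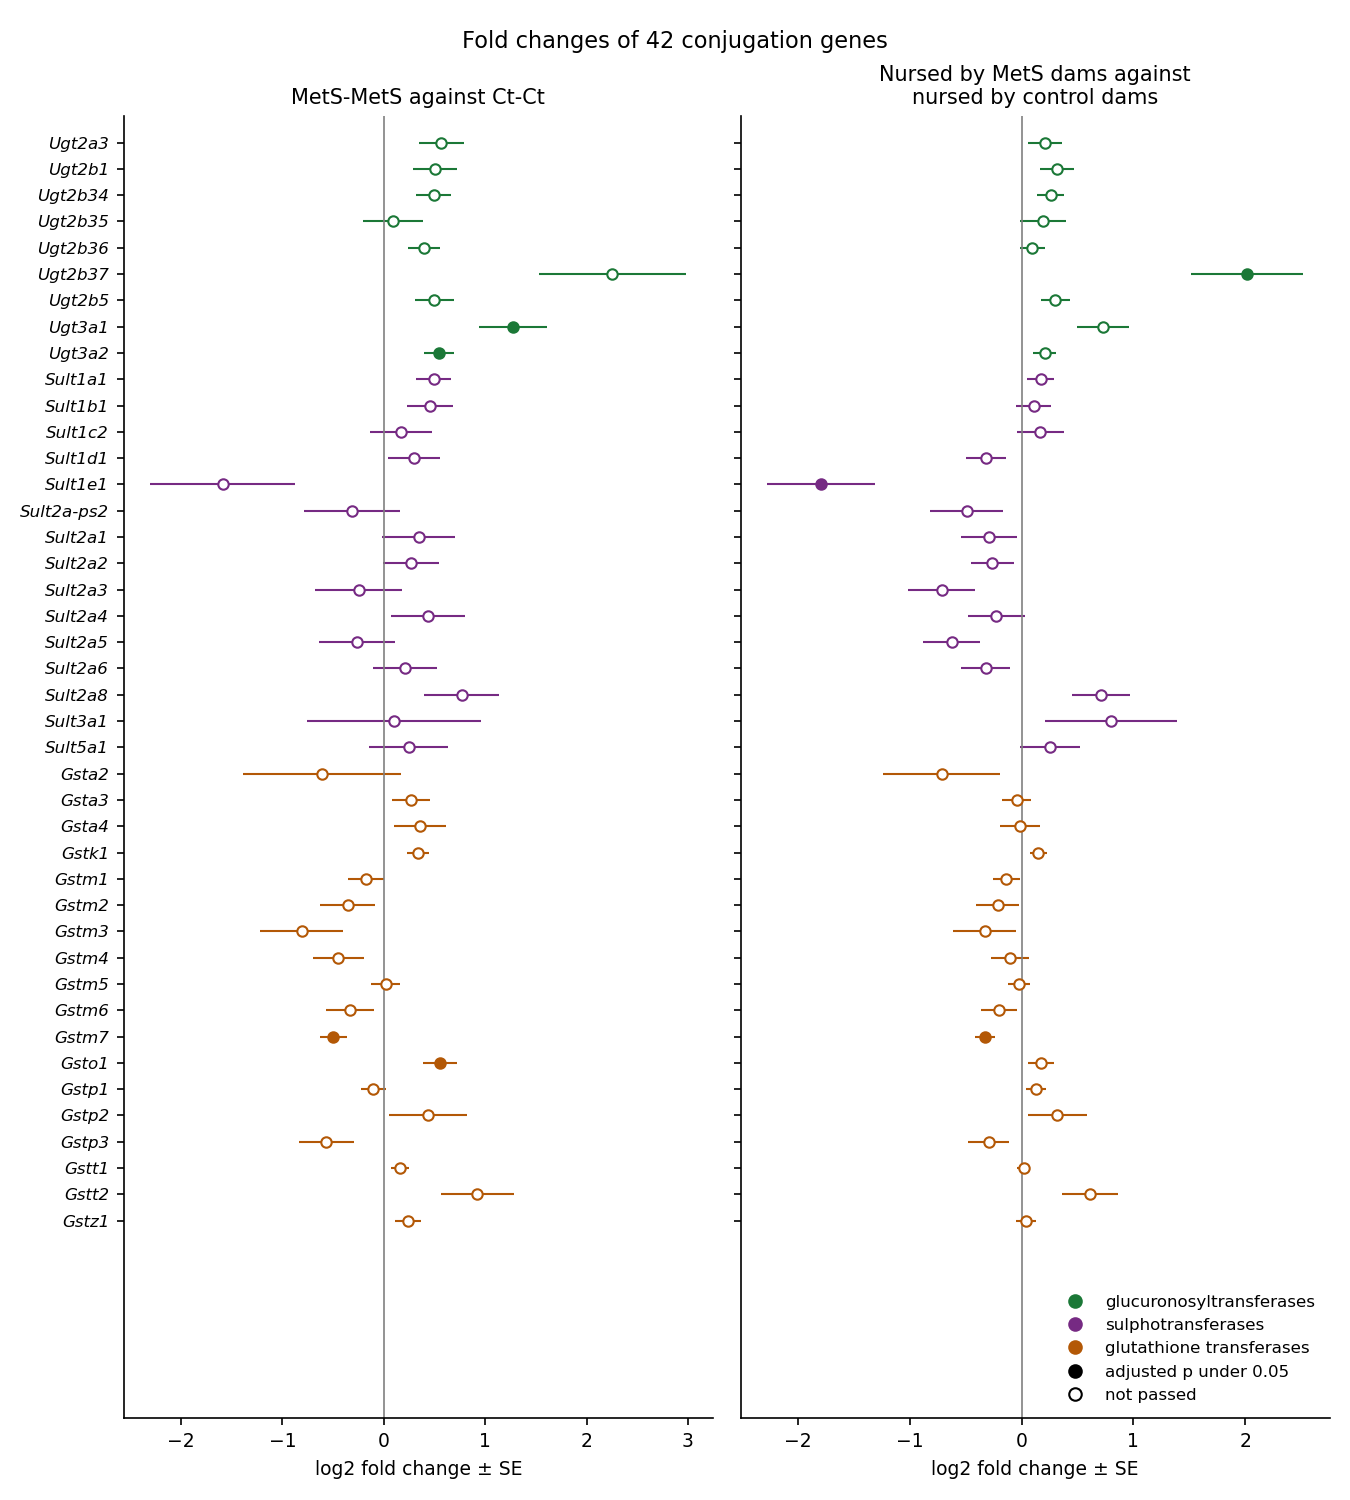
Log2 fold change ± SE of each of the 42 members, in MetS-MetS against Ct-Ct (left) and in pups nursed by MetS dams against pups nursed by control dams (right); filled points passed at an adjusted p under 0.05. All 9 glycosyltransferase points lie right of 0 in both panels, and 4 members on the left and 3 on the right are filled.

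**Figure D5:**
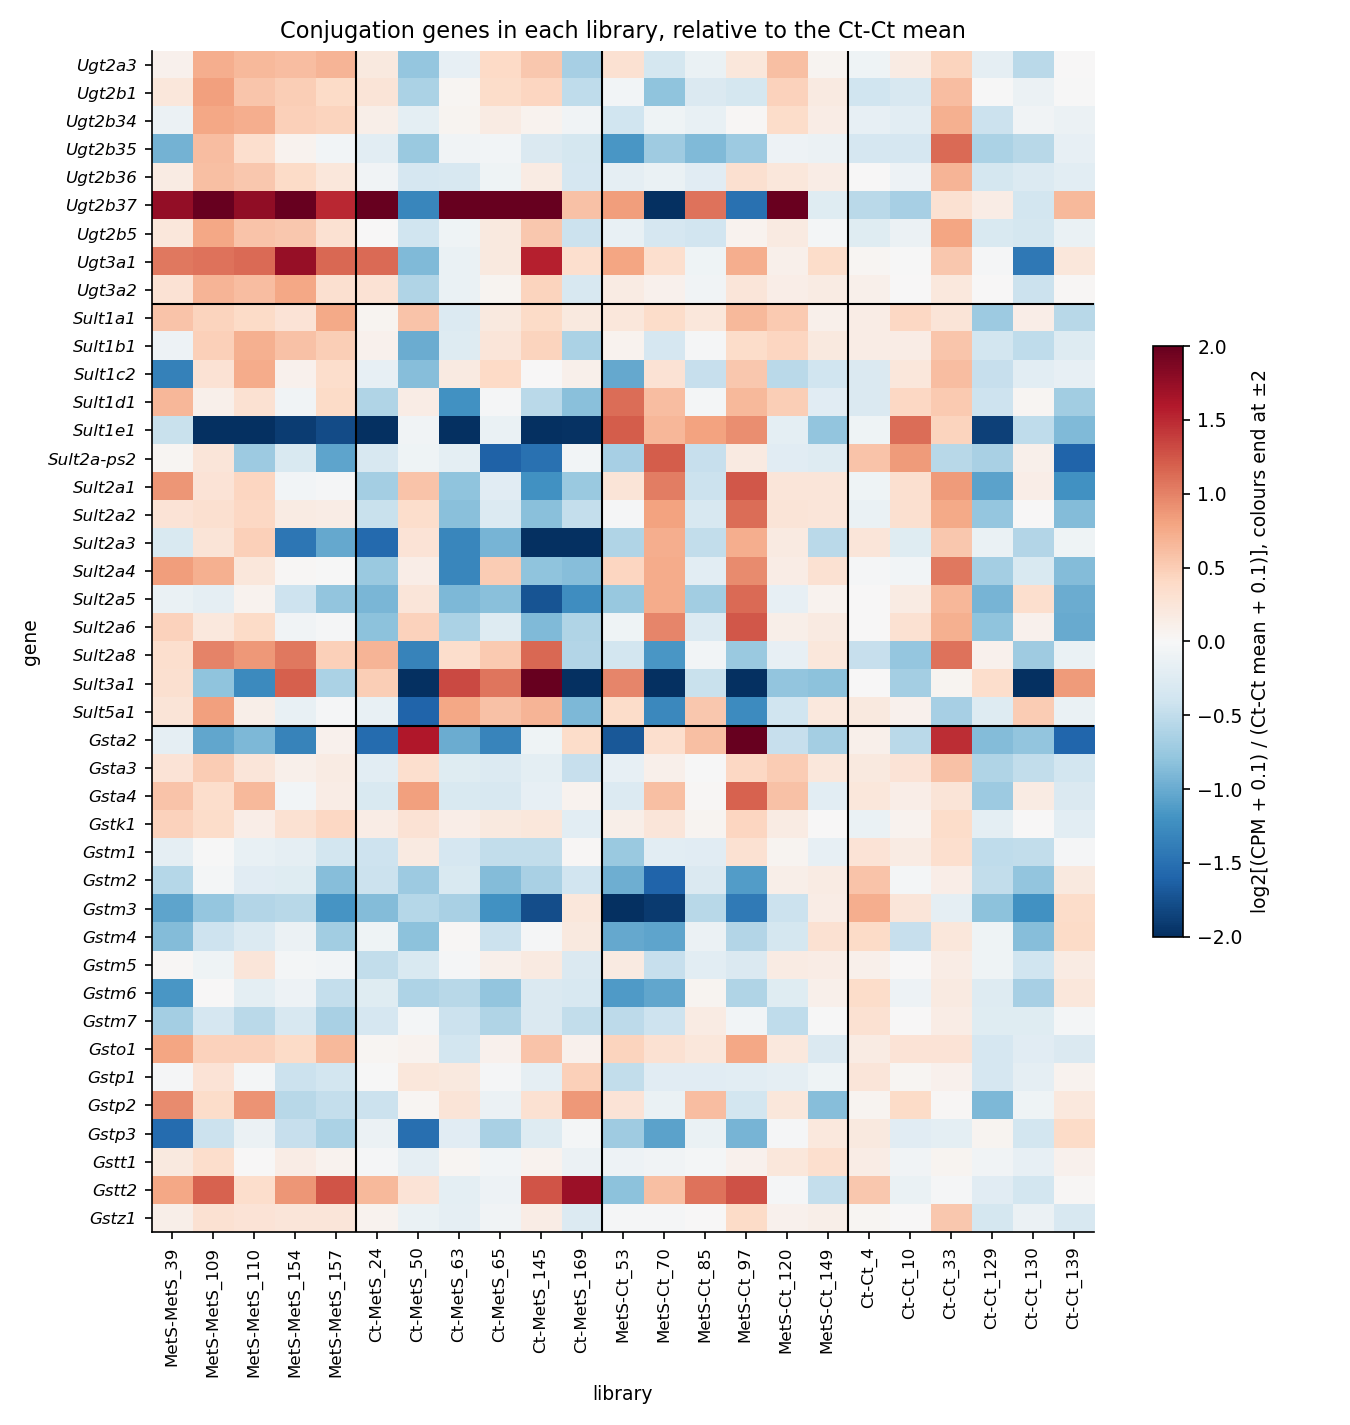
Each member in each liver as log2 of (CPM + 0.1) over (Ct-Ct mean + 0.1), with groups divided by vertical lines and families by horizontal lines. The glycosyltransferase rows are mostly red in the MetS-MetS columns and in Ct-Ct_33, and the Sult1e1 row is blue in most columns of MetS-nursed pups.

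The Ugt1a genes, which include the enzyme of bilirubin glucuronidation, gave no member. Of the 9 Ugt1a genes, 7 had 0 counts in all 23 libraries, Ugt1a10 had 0 to 11 counts and Ugt1a7c 3 to 19. The Ugt1a genes share their last exons, and 39.4% to 49.7% of the exon length of each lies in no other gene on the same strand (GENCODE M21). Why 7 of them stood at 0 was not tested. These counts are not read as a level of Ugt1a messenger RNA in these livers. A count of 0 allows up to 0.0812 to 0.185 CPM of reads assigned to one gene alone, and this limit covers counting error only. Gm20528, annotated at the same locus on the other strand and looked up after the Ugt1a values were seen, averaged 16.6 ± 4.18 CPM in MetS-MetS, 20.9 ± 5.85 in Ct-MetS, 21.0 ± 6.78 in MetS-Ct and 23.3 ± 8.55 in Ct-Ct. Whether its counts come from Ugt1a was not tested, since no source used here gives the strand setting of the counting. The other 21 genes that did not reach the minimum comprised 6 at 0 in every library and 15 with low counts.

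Genes that serve or surround conjugation were taken from lists of the pathway, and the lists' shares of calls are read against the 5.78% (edgeR) and 9.3% (DESeq2) of all genes in MetS-MetS. Of 20 tested genes of cofactor supply, 1 (5%; 2 called by DESeq2) was higher in MetS-MetS: Slc35b2, a Golgi transporter of PAPS, at 68.0 ± 9.26 CPM in MetS-MetS and 44.1 ± 9.91 CPM in Ct-Ct (0.63 ± 0.147, adjusted p = 0.0195). Ggt6, of the gamma-glutamyltransferase family, was lower with nursing by a MetS dam (log2 fell by 0.68 ± 0.136, adjusted p = 0.00831). For nursing this was 1 of 20 (5%, against 4.22% of all genes), and DESeq2 called 3 (against 7.18% of all genes). Of 30 tested other conjugating and detoxifying enzymes, 2 (6.67%; 5 called by DESeq2) were higher in MetS-MetS. Ephx2, the soluble epoxide hydrolase, had 578 ± 194 CPM in MetS-MetS and 267 ± 77.9 CPM in Ct-Ct (1.11 ± 0.224, adjusted p = 0.0108). Ces1d, a carboxylesterase, had 615 ± 63.9 CPM in MetS-MetS and 239 ± 116 CPM in Ct-Ct (1.36 ± 0.282, adjusted p = 0.0121). Tpmt, the thiopurine methyltransferase, was lower with nursing by a MetS dam (fell by 0.26 ± 0.0669, adjusted p = 0.0296). That was 1 of 30 for nursing (3.33%, against 4.22% of all genes), and DESeq2 called 2. None of 14 tested genes of conjugate export and hydrolysis passed in MetS-MetS with edgeR, with 4 at an unadjusted p under 0.05, 1 passing with DESeq2 and 0 with limma-voom.

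Of 28 tested regulators, 1 was higher and 1 lower in MetS-MetS (7.14%; 5 called by DESeq2). Ahr, the dioxin receptor, had 103 ± 17.5 CPM in MetS-MetS and 53.1 ± 24.1 CPM in Ct-Ct (0.95 ± 0.240, adjusted p = 0.0255). Stat5b, which carries the growth hormone signal, had 77.0 ± 13.9 CPM in MetS-MetS and 121 ± 16.6 CPM in Ct-Ct (fell by 0.66 ± 0.134, adjusted p = 0.0116). Among target genes of the receptors named above, the PPARα targets Acot1 (3.35 ± 0.658, adjusted p = 0.0108) and Cyp4a10 (2.88 ± 0.817, 0.0429) were higher in MetS-MetS. G6pdx (fell by 2.40 ± 0.613, 0.0276) and Pgd (fell by 1.51 ± 0.377, 0.0254), enzymes of the pentose phosphate pathway that NRF2 also drives, were lower. With nursing by a MetS dam Acot1 was higher (1.76 ± 0.437, adjusted p = 0.0273) and G6pdx lower (fell by 1.74 ± 0.409, 0.0208). These target gene results are from edgeR. With limma-voom not all of them passed, either in MetS-MetS or with nursing by a MetS dam. The median estimates in MetS-MetS were -0.035 for cofactor supply, 0.18 for the other enzymes, 0.18 for export and hydrolysis and 0.17 for the regulators, beside -0.0038 for all genes tested.

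Some markers of other cells moved with the same comparisons. Of the tested markers of cholangiocytes (5), stellate cells and fibroblasts (6) and lymphocytes (5), none passed in MetS-MetS with any of the 3 tools. Over all genes, 5.78% passed with edgeR in MetS-MetS, 0.954% in Ct-MetS and 4.22% with nursing by a MetS dam. Of 8 markers of Kupffer cells and macrophages, 6 were higher in MetS-MetS, 6 in Ct-MetS and 5 with nursing by a MetS dam. Their summed level was 442 to 720 CPM in MetS-MetS, 516 to 731 in Ct-MetS, 460 to 531 in MetS-Ct and 346 to 448 in Ct-Ct. Among erythroid markers, Slc4a1 and Rhag were higher in MetS-MetS and with nursing by a MetS dam. The summed erythroid level overlapped between MetS-MetS, at 306 to 568 CPM, and Ct-Ct, at 208 to 593 CPM. It was 147 to 360 CPM in Ct-MetS and 136 to 236 CPM in MetS-Ct, where every liver lay below every MetS-MetS liver. Slc4a1, the anion exchanger of red cells, had 8.51 ± 2.60 CPM in MetS-MetS and 3.24 ± 1.28 CPM in Ct-Ct (1.39 ± 0.304, adjusted p = 0.0149), while Hba-a1, a globin gene, had 128.5 ± 31.3 CPM in MetS-MetS and 114 ± 52.4 CPM in Ct-Ct (adjusted p = 0.747). Of 6 endothelial markers, 1 (Emcn) was higher in MetS-MetS and with nursing by a MetS dam. With limma-voom 0 of the 6 passed in MetS-MetS and 1 with nursing. Of 5 intestinal markers, 1 of the 2 tested, Fabp2, a fatty acid binding protein, was higher in MetS-MetS, in Ct-MetS and with nursing by a MetS dam; it averaged 79.3 ± 12.2 CPM in MetS-MetS and 34.1 ± 11.2 CPM in Ct-Ct (1.22 ± 0.236, adjusted p = 0.0105), and Vil1, the other, had 0.355 ± 0.291 CPM in MetS-MetS and 0.423 ± 0.141 CPM in Ct-Ct. None of the 7 hepatocyte markers passed in MetS-MetS with edgeR, and 0 passed with limma-voom. With edgeR 3 had an unadjusted p under 0.05, against 24.4% of all genes, and DESeq2 called 2, against 9.3%. Their sums were 132405 to 148833 CPM in MetS-MetS and 106225 to 138387 CPM in Ct-Ct. Kidney markers were at most 0.180 CPM in sum, with Kap at 0 in every library, and the pancreatic markers Cela2a and Prss2 were at 0 in every library. The part of these cells in the results on conjugation enzymes was not tested. In whole liver, fewer cells of a type and less RNA per cell cannot be told apart.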

How the data were processed

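Polyadenylated RNA of 23 livers was sequenced, 1 library per pup, with a directional kit per the labels. The deposited table holds whole-number counts for 49585 Ensembl genes; it is named as normalised, but its totals and size factors (0.623 to 1.42) are those of raw counts, and it was read so. The submitters' processing notes name STAR, HTSeq, FastQC and DESeq2 with no version; build, annotation and the handling of strand or shared reads in counting are not given there. All 23 columns were assigned to a sample by name. Symbols matched 49326 identifiers.

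Members were taken by symbol and a mean of at least 10 counts. edgeR 4.0.16 (R 4.3.3) was fitted over all 23 libraries and 14466 genes with TMM factors, 1 mean per group and robust quasi-likelihood tests; p-values were Benjamini-Hochberg adjusted over all genes, with a threshold of 0.05. The steps were tested on simulated data. Alternatives were median-of-ratios size factors, no count minimum, DESeq2 1.42.0, limma-voom (limma 3.58.1), the compared groups alone and leaving out each library. Exon lengths and shared 50-base stretches came from GENCODE M21. Depth limits the precision of members at a few counts. Named members are those that passed any test and the most abundant of each family; others are said to be named after their values were seen or serve a range. The members and lists were chosen with earlier results of these data known. A few genes of the lists, and list counts that need them, are not reported here.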

Additional observations from a re-analysis of the deposited data

Results flagged for a closer look

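In 9 of 60 groups of libraries of the named members, 1 liver lay far from the rest of its group (a gap beyond Dixon's 95% limit), where chance alone gives about 1 in 20. Of them, 3 were MetS-MetS livers in genes that passed a test. Ugt3a1 had 25.9 CPM in MetS-MetS_154, where the others had 16.1 to 17.2. Ugt2b37 had 16.0 CPM in MetS-MetS_109, where the others had 5.19 to 8.27. Sult1e1 had 2.64 CPM in MetS-MetS_39, where the others had 0.619 to 0.984. In that same liver Ugt2a3 had 103 CPM, below the 148.6 to 161 CPM of the others. Gsta3 had 1271 CPM in Ct-MetS_50 (others 732 to 876), and Gstk1 had 64.2 CPM in Ct-MetS_169 (others 81.5 to 91.4). Gstz1 had 752 CPM in MetS-Ct_97, the pup labelled day 22 (others 567 to 627). In Ct-Ct_33, Gstz1 had 843 CPM (others 455 to 592) and Ugt2b36 had 654 CPM (others 320 to 415).

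Among genes of the families that did not reach the count minimum, 4 were flagged in 1 exposed liver. The rule asked for at least 10 counts there and a CPM several times the highest Ct-Ct CPM. Smaller excesses over the Ct-Ct livers were not listed. Ugt2b38 had 48 counts in Ct-MetS_145 (Ct-Ct at most 8), the liver with the highest Ugt2b37, and 34.1% of its 50-base stretches occur in Ugt2b5. Sult2b1 had 18 counts in MetS-MetS_110 (Ct-Ct at most 8), Gsta1 had 17 in Ct-MetS_169 (at most 4), and Ugt1a10 had 11 in MetS-MetS_157 (at most 5). These differences were not tested.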

How the results depend on the processing

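No paired analysis was possible because the animal numbers of the labels are not shared between groups. With median-of-ratios size factors all 90 fold changes of the named members kept their direction and their side of the threshold. The number of members that passed was 4 in MetS-MetS and became 1 without a count minimum, and the range over fits without 1 library was 0 to 11. For nursing by a MetS dam it was 3 and became 0 without a count minimum and 1 with limma-voom. The range over fits without 1 library was 1 to 6 (6 without Ct-MetS_50). Over all genes the nursing count was 611, and 367 without a count minimum, 1038 with DESeq2 and 574 with limma-voom. Without 1 library that count ran from 349 (without MetS-MetS_154) to 923 (without Ct-MetS_50). DESeq2 called 6 members in the test of any difference, 1 in Ct-MetS and 1 for birth to a MetS dam, where edgeR called 0 in each. Fits without 1 library gave 0 to 3 in the test of any difference, 0 to 2 in Ct-MetS and 0 for birth to a MetS dam, MetS-Ct and the interaction. No called fold change reversed in any of these fits. Over all genes the count in MetS-MetS was 836, and 457 without a count minimum, 1346 with DESeq2 and 527 with limma-voom; without 1 library it ran from 219 (without Ct-Ct_129) to 1354 (without Ct-Ct_33). The glycosyltransferase estimates in MetS-MetS were above 0 in 8 or 9 of 9 genes in each of 29 fits. Where a setting moved a count, the cause was not tested. Ugt2b37, Sult1e1, Sult3a1, Gstp2 and Sult2a-ps2 had under 10 counts in some livers, which limits the precision of their folds.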

Other observations

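The interaction of both exposures, computed as the effect of a MetS foster dam in pups of MetS dams minus that in pups of control dams, had estimates above 0 in 35 of 42 members, with a median of 0.21, beside 50.7% of all genes and a median of 0.0039. No member passed (edgeR, DESeq2 and limma-voom). The 3 members with an unadjusted p under 0.05 were Ugt2b35 (0.92 ± 0.407), Ugt2b5 (0.58 ± 0.266) and Ugt2b36 (0.51 ± 0.218), named after their values were seen, each with an adjusted p of 0.892; 3 of 42 is 7.14%, beside 5.44% of all genes. Ct-Ct_33 enters this estimate with a positive weight and was the highest Ct-Ct liver for all 3. Without it the estimates were above 0 in 30 of 42 members, with a median of 0.105, 1 member (Gsta2, with an estimate below 0) had an unadjusted p under 0.05, and those of Ugt2b35, Ugt2b5 and Ugt2b36 were 0.53 ± 0.305, 0.35 ± 0.210 and 0.32 ± 0.170.

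Ct-MetS_50 had the lowest summed glycosyltransferase level of all 23 livers (1227 CPM) and the highest summed sulphotransferase level of its group (2039 CPM), and it was the highest of its group for 5 of the 8 Sult2a members. MetS-Ct_97, the day 22 pup, had the highest summed sulphotransferase level of all livers (3015 CPM) and the highest level of all livers for 4 of the 8 Sult2a members.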
